A study of Mus musculus with 12 samples.

Results

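The kappa V genes are the variable segments of the kappa light chain of antibodies, and they were taken here as every gene whose symbol begins with Igkv and that the annotation types as a V gene (IG_V_gene) and not as a pseudogene. This gave 100 genes of the 50686 in the count tables. They fall into 20 sequence subgroups, named by the number after Igkv, and lie on mouse chromosome 6 between 67555497 and 70704177 (GRCm38), a span of 3149 kb. A further 60 Igkv pseudogenes were left out of the members. The libraries hold poly(A) RNA of splenic B cells, sorted as live cells positive for the B cell marker B220 and for a fluorescent reporter. YC is the normal control (YFPstopF/+ with Cg1Cre/+, YFP-positive, n = 3). BIC (Blimp1F/F and IKK2castopF/stopF with Cg1Cre/+, GFP-positive, n = 3) and pBIC (the same with p53F/F as well, GFP-positive, n = 6) are mouse models of ABC-DLBCL, a lymphoma of activated B cells. All 3 groups carry the Cg1Cre allele, which expresses Cre from the gamma 1 heavy chain constant locus, so the reporter marks B cells in which Cre has acted and their descendants. Neither age nor sex was given in the labels. The names of the deposited pBIC tables carry a further tag, one for pBIC 1 to 3 and another for pBIC 4 to 6, which the labels do not explain; it was not used, and pBIC means pool both.

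In a developing B cell, the RAG1 and RAG2 recombinase joins a V gene to a J gene (Igkj) upstream of the constant gene Igkc. The joined exon is transcribed from the promoter of the chosen V gene at a high rate, while V genes that were not chosen are transcribed little. As a rule a mature B cell expresses a single light chain, kappa or lambda, and its descendants inherit the joint. The share of Igkv reads from each V gene is therefore used as a readout of how many kappa rearrangements a B cell population contains. Those V genes that point the same way as the J genes join by deletion of the DNA between them, and those that point the other way join by inversion.

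The coding exon of 3 members is printed whole, because Igkv19-93 and Igkv12-44 each led 2 of the pBIC libraries and Igkv12-46, the leading gene of BIC 2, is a near relative of Igkv12-44. The sequences are the V exons of the GENCODE M21 transcripts, 5′ to 3′ on the coding strand. Capitals mark the bases from the codon of the conserved cysteine that opens the third hypervariable loop to the end of the exon, where the J gene is joined. All 3 lie on the minus strand, at chr6:68736297-68736594 for Igkv19-93, chr6:69814631-69814928 for Igkv12-44 and chr6:69764523-69764820 for Igkv12-46.
Igkv19-93: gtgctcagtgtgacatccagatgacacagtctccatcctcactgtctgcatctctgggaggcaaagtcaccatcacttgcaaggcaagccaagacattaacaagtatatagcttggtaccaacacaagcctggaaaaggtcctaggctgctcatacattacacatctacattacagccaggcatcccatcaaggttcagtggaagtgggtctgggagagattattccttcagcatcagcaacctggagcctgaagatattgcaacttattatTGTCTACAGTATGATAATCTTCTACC
Igkv12-44: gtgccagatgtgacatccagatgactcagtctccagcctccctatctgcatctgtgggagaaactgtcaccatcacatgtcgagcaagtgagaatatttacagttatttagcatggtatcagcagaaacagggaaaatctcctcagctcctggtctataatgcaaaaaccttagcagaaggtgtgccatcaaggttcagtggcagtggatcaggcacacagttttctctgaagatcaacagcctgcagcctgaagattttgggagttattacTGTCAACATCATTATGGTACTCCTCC
Igkv12-46: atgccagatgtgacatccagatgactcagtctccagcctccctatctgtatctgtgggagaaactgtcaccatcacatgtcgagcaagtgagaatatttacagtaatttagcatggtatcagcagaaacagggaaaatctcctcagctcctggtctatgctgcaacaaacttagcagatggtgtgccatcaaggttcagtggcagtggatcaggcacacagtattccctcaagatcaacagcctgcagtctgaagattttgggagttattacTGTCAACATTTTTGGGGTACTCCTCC
Over these exons Igkv12-44 and Igkv12-46 were 94.6% identical, and the member nearest to Igkv19-93 was Igkv10-94 at 78.9%. The last 60 bases of the V exon, with the same bases in capitals, are shown for the other members that held at least 10% of the Igkv counts in a BIC or pBIC library, to show how far these germline genes differ in the loop.
Igkv1-135: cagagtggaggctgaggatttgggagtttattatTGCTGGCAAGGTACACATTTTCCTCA
Igkv4-63: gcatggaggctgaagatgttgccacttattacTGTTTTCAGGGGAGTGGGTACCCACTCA
Igkv4-91: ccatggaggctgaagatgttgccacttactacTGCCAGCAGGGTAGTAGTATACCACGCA
Igkv4-68: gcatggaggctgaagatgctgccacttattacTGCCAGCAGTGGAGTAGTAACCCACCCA
Igkv14-111: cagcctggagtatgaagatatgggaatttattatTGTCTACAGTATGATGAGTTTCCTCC
Igkv8-30: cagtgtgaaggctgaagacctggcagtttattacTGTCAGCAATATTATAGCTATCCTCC
Igkv5-48: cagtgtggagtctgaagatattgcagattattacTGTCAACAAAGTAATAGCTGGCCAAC
Igkv6-23: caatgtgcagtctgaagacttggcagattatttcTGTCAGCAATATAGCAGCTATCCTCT
No reads and no mutated bases were examined. These letters are the reference strain's genes and not the tumours' own sequences.

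A library held 33127283 to 47067627 counts in all, and the summed Igkv counts from 27068 in pBIC 6 to 171142 in BIC 1. The counting left out reads that align equally well to several places. Of the 100 members, 45 had at least 1 stretch of 100 bases, the read length, that also occurred in another gene. The genes searched were all immunoglobulin V genes, V pseudogenes and kappa genes. In 25 members at least 10% of such stretches were repeated in this way. Among the leading genes of the libraries this share was 13.9% for Igkv4-68, 4.64% for Igkv12-44, 1.36% for Igkv1-135 and 0% for the other 6. All YC libraries carried Y-linked transcripts and all BIC libraries carried Xist, so that genotype and this sign of sex cannot be told apart between them. The pBIC libraries were mixed: pBIC 2, 4 and 5 carried Xist, pBIC 3 and 6 carried Y-linked transcripts, and pBIC 1 had at most 2.6002 CPM (counts per 1000000 with TMM scaling) of either.

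Libraries pBIC 2 and pBIC 5 shared nearly all of their receptor gene usage. Igkv19-93 held 96.4% and 99.5% of their Igkv counts, Ighv2-9 held 92.2% and 94.9% of their heavy chain V counts, and Igkj1 held 53.3% and 53.4% of their J counts. Their summed overlap was 96.9% over kappa V genes and 96.5% over heavy chain V genes. Over all genes their counts differed by more than sampling noise, with a chi-square per gene of 129. It was 25.2, 94.9 and 95.9 for the pairs of YC libraries, 106 to 165 for those of BIC and 179 to 475 for the other pairs of pBIC. The next highest overlap of heavy chain V usage outside YC was that of BIC 3 with pBIC 1, at 50.8%, but their kappa V usage overlapped by 3.64%. The labels list them as separate samples, and they are counted so here. The tests with pBIC were repeated with the pair entered as 1 sample.

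**Figure D1:**
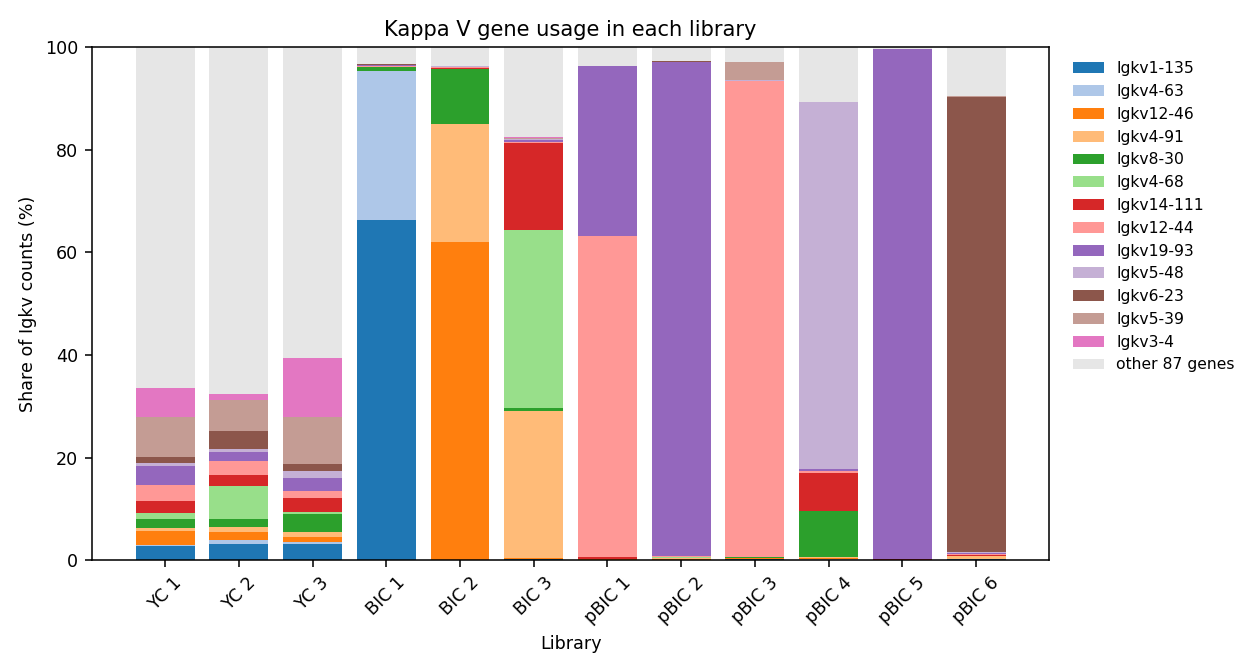
Share of the summed Igkv counts (%, vertical axis) held by each of 13 kappa V genes and by the other members together (grey), with 1 bar for each library. The YC bars are mostly grey, with no gene over 11.5%, while 1 to 3 genes fill most of each BIC and pBIC bar.

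The normal control B cells used nearly the whole locus. The 6 members with the highest mean share in YC were Igkv5-39 (7.63% ± 1.62, SD, n = 3), Igkv3-4 (6.09% ± 5.15), Igkv1-110 (5.27% ± 0.94), Igkv1-117 (4.87% ± 0.69), Igkv3-2 (4.04% ± 0.86) and Igkv10-96 (3.39% ± 0.66). These are shares of counts, not corrected for the length of the gene, which ran from 338 to 501 bases. Between 98 and 99 members had a count in each YC library, and 89 had at least 10 counts in all 3. The leading gene was Igkv5-39 in YC 1 with 7.77% of Igkv counts, Igkv4-68 in YC 2 with 6.38% and Igkv3-4 in YC 3 with 11.5%. Per base of gene length Igkv5-39 led in YC 2. The 3 libraries were not copies of one another. Igkv3-4 held 5.58%, 1.21% and 11.5% of Igkv counts in YC 1, 2 and 3, and Igkv4-68 held 1.15%, 6.38% and 0.310%. Their usage overlapped in pairs by 68.3% to 77.7%, where 100% would be the same share for every gene.

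In the BIC libraries 2 or 3 genes held most of the Igkv counts. Igkv1-135 held 66.2% and Igkv4-63 29.1% in BIC 1. Igkv12-46 held 61.9%, Igkv4-91 23.0% and Igkv8-30 10.9% in BIC 2. BIC 3 was less concentrated, with 34.7% for Igkv4-68, 28.7% for Igkv4-91 and 16.9% for Igkv14-111, and 19.7% was left for the other genes. The leading gene was a different one in each of the 3.

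In the pBIC libraries a single gene held over 50% of the Igkv counts in 6 of 6. Igkv12-44 led in pBIC 1 (62.6%) and pBIC 3 (92.7%), Igkv19-93 in pBIC 2 (96.4%) and pBIC 5 (99.5%), Igkv5-48 in pBIC 4 (71.6%) and Igkv6-23 in pBIC 6 (88.9%). A second gene reached 10% only in pBIC 1, where Igkv19-93 held 33.2%. In pBIC 4 the next genes were Igkv8-30 at 9.12% and Igkv14-111 at 7.26%. The 95% Wilson intervals of the leading gene's share were narrow at these counts, from 99.5% to 99.6% in pBIC 5 and from 34.3% to 35.2% in BIC 3, where the interval was widest among BIC and pBIC. Intervals cover counting error only, and they are too narrow because both mates of a read pair were counted.

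Seen gene by gene, 11 of the 100 members held at least 10% of the Igkv counts in at least 1 of the 9 BIC and pBIC libraries. Only 3 of them did so in more than 1 library. Igkv19-93 held 3.56%, 1.84% and 2.57% in YC, 0.0734% to 0.382% in BIC, and in pBIC 33.2% (pBIC 1), 96.4% (pBIC 2), 99.5% (pBIC 5) and at most 0.333% in the other 3. It was high in 3 pBIC libraries and below its YC range in all other tumour libraries. Igkv12-44 held 3.16%, 2.68% and 1.25% in YC, at most 0.345% in BIC, 62.6% and 92.7% in pBIC 1 and 3, and at most 0.444% in pBIC 2, 4, 5 and 6. Igkv4-91 held 0.613%, 1.004% and 0.903% in YC, 23.0% and 28.7% in BIC 2 and 3, 0.106% in BIC 1 and at most 0.495% in pBIC. Libraries pBIC 1 and pBIC 3, which share Igkv12-44, had Ighv5-4 and Ighv2-6-8 as their leading heavy chain V genes, and their heavy chain usage overlapped by 1.30%. BIC 2 and BIC 3, which share Igkv4-91, also shared Ighv12-3, at 22.5% and 32.5% of heavy chain V counts, and their heavy chain usage overlapped by 24.0%.

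None of the 11 was among the 6 members most used in YC. Their mean YC shares ran from 0.433% for Igkv4-63, which ranked 51 in YC, to 3.02% for Igkv1-135, which ranked 9. The 6 most used YC genes together held 27.2% to 35.1% of Igkv counts in YC, 0.263% to 2.91% in BIC and 0.0641% to 3.78% in pBIC, with no overlap between YC and the other groups. This separation was favoured by the choice of the 6 genes on these same YC libraries. Leading genes that hold most counts of a library also leave low shares for all others. Among these 6 genes, Igkv3-4 was low in BIC and pBIC also in CPM, which are scaled to all counts of a library. It had 168 and 355 CPM in YC 1 and 3 and 34.6 in YC 2, at most 1.48 in BIC and at most 0.206 in pBIC, with no count among 44294 Igkv counts in pBIC 3, which allows a share of up to 0.00677%. The highest value of these 6 genes in pBIC was that of Igkv5-39 in pBIC 3, 3.63% or 44.4 CPM, as the second gene of that library.

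Apart from pBIC 2 with pBIC 5, no other pair of libraries reached the overlap seen within YC. Pairs of BIC libraries shared 2.19% to 26.2% of their usage, and the highest was BIC 2 with BIC 3. Pairs of pBIC libraries shared 0.590% to 96.9% with a median of 2.33%. After the highest pair came pBIC 1 with pBIC 3 at 64.3%, and pBIC 1 with pBIC 2 and with pBIC 5 at 34.1% and 33.5%. A YC and a BIC library shared 7.52% to 24.0%, and a YC and a pBIC library 2.32% to 18.1%. These pairs reuse the same libraries and are given as a description.

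The number of genes in use was summarised as the effective number, the number of equally used genes that would give the same Shannon entropy. It was 47.2, 45.6 and 39.5 in YC, 2.53, 3.16 and 7.31 in BIC, and 2.48, 1.30, 1.52, 3.48, 1.05 and 1.88 in pBIC 1 to 6. No BIC or pBIC library came near the YC range. The number of members with at least 1% of Igkv counts was 32, 31 and 27 in YC, 2, 3 and 8 in BIC, and between 1 and 5 in pBIC with a median of 3.

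**Figure D2:**
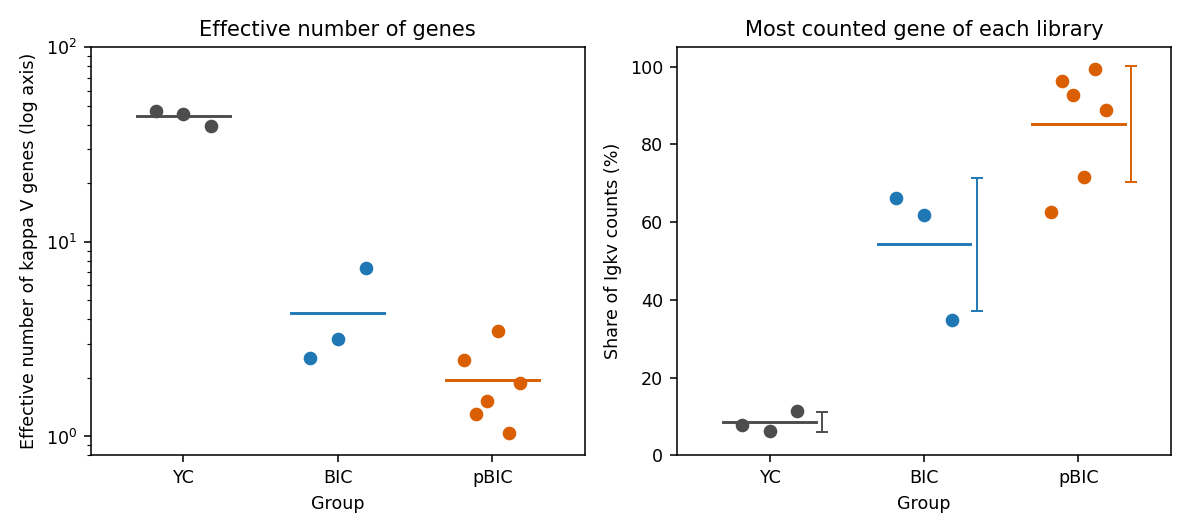
Left, the effective number of kappa V genes per library on a log axis. Right, the share of Igkv counts held by the most counted gene (%). Points are libraries, horizontal lines are group means and vertical bars on the right panel are ± 1 SD. YC lies at 39.5 to 47.2 genes, and every BIC and pBIC library at 7.31 or fewer.

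The share of the most counted gene was 8.54% ± 2.63 (SD, n = 3) in YC, 54.3% ± 17.1 (n = 3) in BIC and 85.3% ± 14.8 (n = 6) in pBIC. Between pBIC and YC the difference was 76.8 percentage points (exact two-sided permutation test, p = 0.0238, adjusted p = 0.0286 over 6 measures, n = 6 and 3), higher in 6 of 6 pBIC libraries than in any YC library. The evenness, entropy divided by its largest possible value, was 0.822 ± 0.021 in YC and 0.127 ± 0.096 in pBIC, and the number of genes with at least 1% was 30.0 ± 2.65 and 2.83 ± 1.33. Both had the same exact p = 0.0238 and adjusted p = 0.0286, the smallest p that 6 against 3 samples can give. With pBIC 2 and pBIC 5 as 1 sample, the differences were 74.2 points in top gene share, -0.676 in evenness and -26.9 genes (exact permutation p = 0.0357 and adjusted p = 0.0429 for each), and with any 1 of the 3 YC libraries left out the design cannot go below p = 0.0714.

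Between BIC and YC the groups did not overlap in top gene share (45.8 points higher), evenness (a difference of -0.527, 0.294 ± 0.122 in BIC) or genes with at least 1% (4.33 ± 3.21 in BIC). With 3 libraries against 3 the exact permutation test cannot go below p = 0.10, which each of these reached (adjusted p = 0.20), so none passed 0.05. Between pBIC and BIC the top gene share was 31.0 points higher in pBIC (exact permutation p = 0.0476, adjusted p = 0.214, n = 6 and 3), and the ranges overlapped, since BIC 1 at 66.2% lay above pBIC 1 at 62.6%. None of the 6 measures passed 0.05 between these 2 models after adjustment, nor with pBIC 2 and pBIC 5 as 1 sample, where the adjusted exact permutation p ran from 0.268 to 0.571.

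The kappa V genes were then tested one by one with edgeR's quasi-likelihood test. In BIC against YC, 34 of 92 members tested were lower and 0 higher at an adjusted p under 0.05, while 8.88% of all 17754 genes tested were called, 4.97% lower and 3.9% higher. In pBIC against YC, 70 were lower and 0 higher, while 22% of all genes were called, 10.2% lower and 11.8% higher. In pBIC against BIC, 27 were lower and 0 higher, while 19.7% were called, 8.78% lower and 10.9% higher. Among members, 61, 74 and 41 had an unadjusted edgeR p under 0.05 in the 3 comparisons. This was not counted over all genes, so these numbers cannot be set against a share of all genes. DESeq2 gave an adjusted p for 77 members and called 53, 65 and 27 of them lower and 1, 0 and 2 higher. Of all 17561 genes with such a p it called 1573, 2344 and 2128 lower and 1459, 2977 and 2735 higher. The members it called higher, named after their values were seen, were Igkv4-91 in BIC against YC and Igkv19-93 and Igkv12-44 in pBIC against BIC. The filter on low counts kept 92 of the 100 members. Of these, 40 had at least 10 counts in fewer than 3 of the 9 tumour libraries and so passed through their YC counts. The filter thus favoured lower values of these 40 against YC, and with them the counts called lower and the medians. How many of the calls came from these 40 was not counted. In pBIC against BIC these genes had few counts in most of the 9 libraries. The median log2 fold change over the 92 was -4.12, -6.35 and -1.68, and over all genes tested 0.01, 0.10 and 0.09. The 8 that did not pass were Igkv2-137, Igkv1-131, Igkv20-101-2, Igkv4-71, Igkv18-36, Igkv1-35, Igkv7-33 and Igkv8-26.

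The count of called members in BIC against YC depended on single libraries, and so did the count over all genes. It was 19 members without YC 3, 21 without YC 1 and 22 without YC 2, and 64 when the 2 groups were fitted alone. Over all genes these fits called 569 of 18697, 734 of 18427, 563 of 18545 and 4602 of 15923, against 1576 of 17754 with all libraries. In pBIC against BIC the count of members was 13 without BIC 1, 16 without BIC 2, 17 without BIC 3, 17 without YC 2, 18 without YC 3 and 18 without pBIC 5, and 11 with the 2 groups alone, where 52 members were tested. Over all genes these fits called 1422 of 18505, 1673 of 18730, 2315 of 18742, 2730 of 18545, 2798 of 18697, 3144 of 17461 and 2377 of 16853, against 3496 of 17754 with all libraries. In pBIC against YC the count of members stayed between 59 and 74 over all libraries left out, and that of all genes ran from 1904 to 4376. With pBIC 2 and pBIC 5 as 1 sample the 3 counts of members were 37, 67 and 22, where 1673, 3687 and 3147 of all 17440 genes were called.

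The 6 genes most used in YC were chosen by their shares in these same YC libraries, so a lower value elsewhere was favoured by the choice. Their fold changes and p-values are given as a description. Among these genes, Igkv3-4 was lower in pBIC by a log2 fold change of -10.46 ± 0.90 (SE, edgeR adjusted p = 5.34e-05), Igkv3-2 by -8.11 ± 0.76 (adjusted p = 9.12e-05) and Igkv10-96 by -7.57 ± 0.48 (adjusted p = 1.27e-05). The BIC libraries gave these genes log2 fold changes of -7.60, -5.61 and -5.59 (edgeR adjusted p of 0.00281, 0.00491 and 0.0012). Igkv1-110 was lower in pBIC by -6.44 (edgeR adjusted p = 0.000933) and in BIC by -4.72 (edgeR adjusted p = 0.0272), the latter lost in 6 of 19 alternatives, among them without any YC library, BIC 1 or BIC 2 (up to 0.103). Igkv1-117 was lower in pBIC by -6.53 (edgeR adjusted p = 0.00224), and its log2 fold change of -4.78 in BIC did not pass (edgeR adjusted p = 0.0544). Igkv5-39 had a log2 fold change of -7.25 in BIC that did not pass (edgeR adjusted p = 0.0735), and its call in pBIC (log2 fold change -4.90, adjusted p = 0.0401) was lost in 14 of 19 alternatives, among them without any 1 library other than pBIC 3, with an adjusted p of up to 0.139. A gene that led only some tumour libraries gave a large mean and a large spread: Igkv19-93 was higher in pBIC than in YC by a log2 fold change of 2.99 ± 1.93 (edgeR adjusted p = 0.288). In BIC against YC, Igkv4-63 had a log2 fold change of 4.82 ± 2.004, Igkv4-91 of 3.65 ± 1.29, Igkv12-46 of 3.39 ± 1.76 and Igkv1-135 of 3.19 ± 1.75, with edgeR adjusted p of 0.153, 0.101, 0.25 and 0.275. With all 12 libraries edgeR called no leading gene higher in any of the 3 comparisons. With pBIC 2 and pBIC 5 as 1 sample, of these calls that of Igkv5-39 in pBIC was lost, and Igkv1-117 was called lower in BIC.

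The members outside the leading few were also summed, as a description with no test, since the members were chosen within each library by their own share. Those with under 5% of a library's Igkv counts held 66.3% to 79.4% of these counts in YC and 0.477% to 19.7% in BIC and pBIC. They summed to 2273, 1899 and 2454 CPM in YC, 175, 114 and 224 CPM in BIC, and 8.60 to 115 CPM in pBIC. Every tumour library lay below every YC library. The usage of these members overlapped with the mean YC usage of those genes by 36.8% to 47.3% in BIC and 25.4% to 43.2% in pBIC, against 74.7% to 78.7% for each YC library set against the other 2. At the depth of pBIC 5, 372 counts stood behind that value.

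By subgroup, YC spread its counts over Igkv3 (15.99% ± 5.33, SD, n = 3), Igkv4 (14.9% ± 3.93) and Igkv1 (13.99% ± 1.603), followed by Igkv5 (9.82% ± 2.55), Igkv6 (8.92% ± 1.81), Igkv8 (8.45% ± 2.17) and Igkv12 (5.54% ± 2.41). Igkv4 is the largest subgroup, with 26 of the 100 members. The leading subgroup was Igkv1 in BIC 1 (66.7%), Igkv12 in BIC 2 (62.2%) and Igkv4 in BIC 3 (68.2%). In BIC 3, Igkv4-68 (34.7%) and Igkv4-91 (28.7%) made most of that share. In pBIC it was Igkv12 in pBIC 1 and 3 (63.3% and 93.1%), Igkv19, which has a single member, in pBIC 2 and 5 (96.4% and 99.5%), Igkv5 in pBIC 4 (72.3%) and Igkv6 in pBIC 6 (94.6%). Igkv3, whose 9 members lie nearest the J genes, held at most 0.849% in BIC and at most 0.419% in pBIC, and led no tumour library.

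None of the 7 subgroups with at least 5% in YC passed the test in any comparison. In pBIC against YC the shares of Igkv1, Igkv3 and Igkv4 were 0.780%, 0.143% and 0.900% on average, lower than in any YC library (exact permutation p = 0.0238 each, adjusted p = 0.0556 over 7, n = 6 and 3). With pBIC 2 and pBIC 5 as 1 sample none passed either, the lowest adjusted exact permutation p being 0.0833 against YC and 0.25 against BIC. Without pBIC 4, 5 of the 7 had an adjusted p of 0.05, at the threshold itself. In pBIC against BIC, Igkv4 held 0.0564% to 1.78% of Igkv counts, where the 3 BIC libraries had 30.6%, 23.8% and 68.2% (exact permutation p = 0.0238, adjusted p = 0.167).

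**Figure D3:**
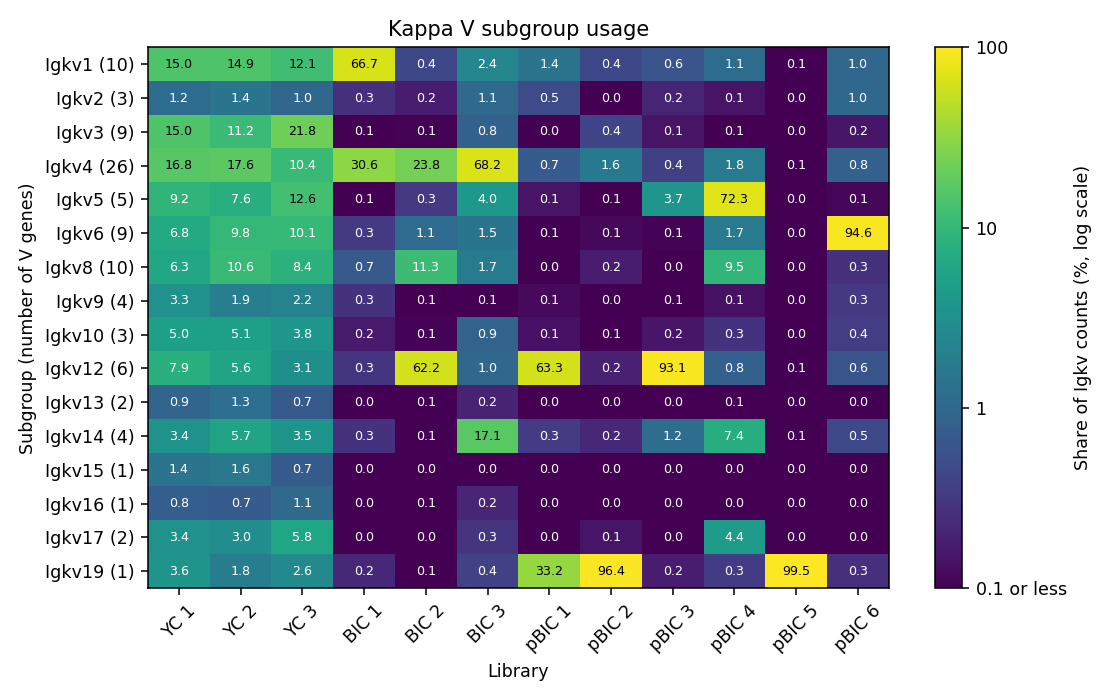
Share of Igkv counts (%, numbers in the cells, colour on a log scale) for each kappa V subgroup that reached 1% in a library, with the number of V genes of the subgroup in brackets. The YC columns are filled throughout, and each BIC or pBIC column has 1 to 3 bright cells.

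Along the locus the 100 members lie upstream of Igkj1, whose start is at 70722562 on the plus strand, the last member 18.4 kb from it. On the minus strand, opposite to the J genes, lie 62 members, and 38 lie on the plus strand. The leading gene was on the minus strand in 8 of the 9 BIC and pBIC libraries, the exception being Igkv1-135 in BIC 1, and in 2 of the 3 YC libraries. Of the 11 members that reached 10% in a tumour library, 9 were on the minus strand. Minus-strand genes held 54.9%, 56.7% and 49.6% of Igkv counts in YC, 32.3%, 99.0% and 77.0% in BIC, and 86.5% to 99.8% in pBIC with a median of 98.3%. All 6 pBIC libraries lay above all YC libraries, and BIC lay on both sides of YC.

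The pBIC mean was 42.0 percentage points above YC (95.7% ± 5.17 against 53.7% ± 3.68, exact permutation p = 0.0238, adjusted p = 0.0286, n = 6 and 3), and 41.3 points with pBIC 2 and pBIC 5 as 1 sample (exact permutation p = 0.0357, adjusted p = 0.0429). This measure rests on the leading gene of each library. The 6 pBIC libraries had 4 distinct leading genes, all on the minus strand, which holds 62% of the members. The permutation test does not measure how often so few genes would all lie on that strand. It therefore cannot show a preference for a strand, and none is concluded. Without the leading gene in every library, the difference of pBIC from YC was 7.75 points (exact permutation p = 0.643). Neither BIC against YC (15.7 points, exact permutation p = 0.50) nor pBIC against BIC (26.2 points, exact permutation p = 0.143) passed, and the last turned to -24.6 points without the leading genes.

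**Figure D4:**
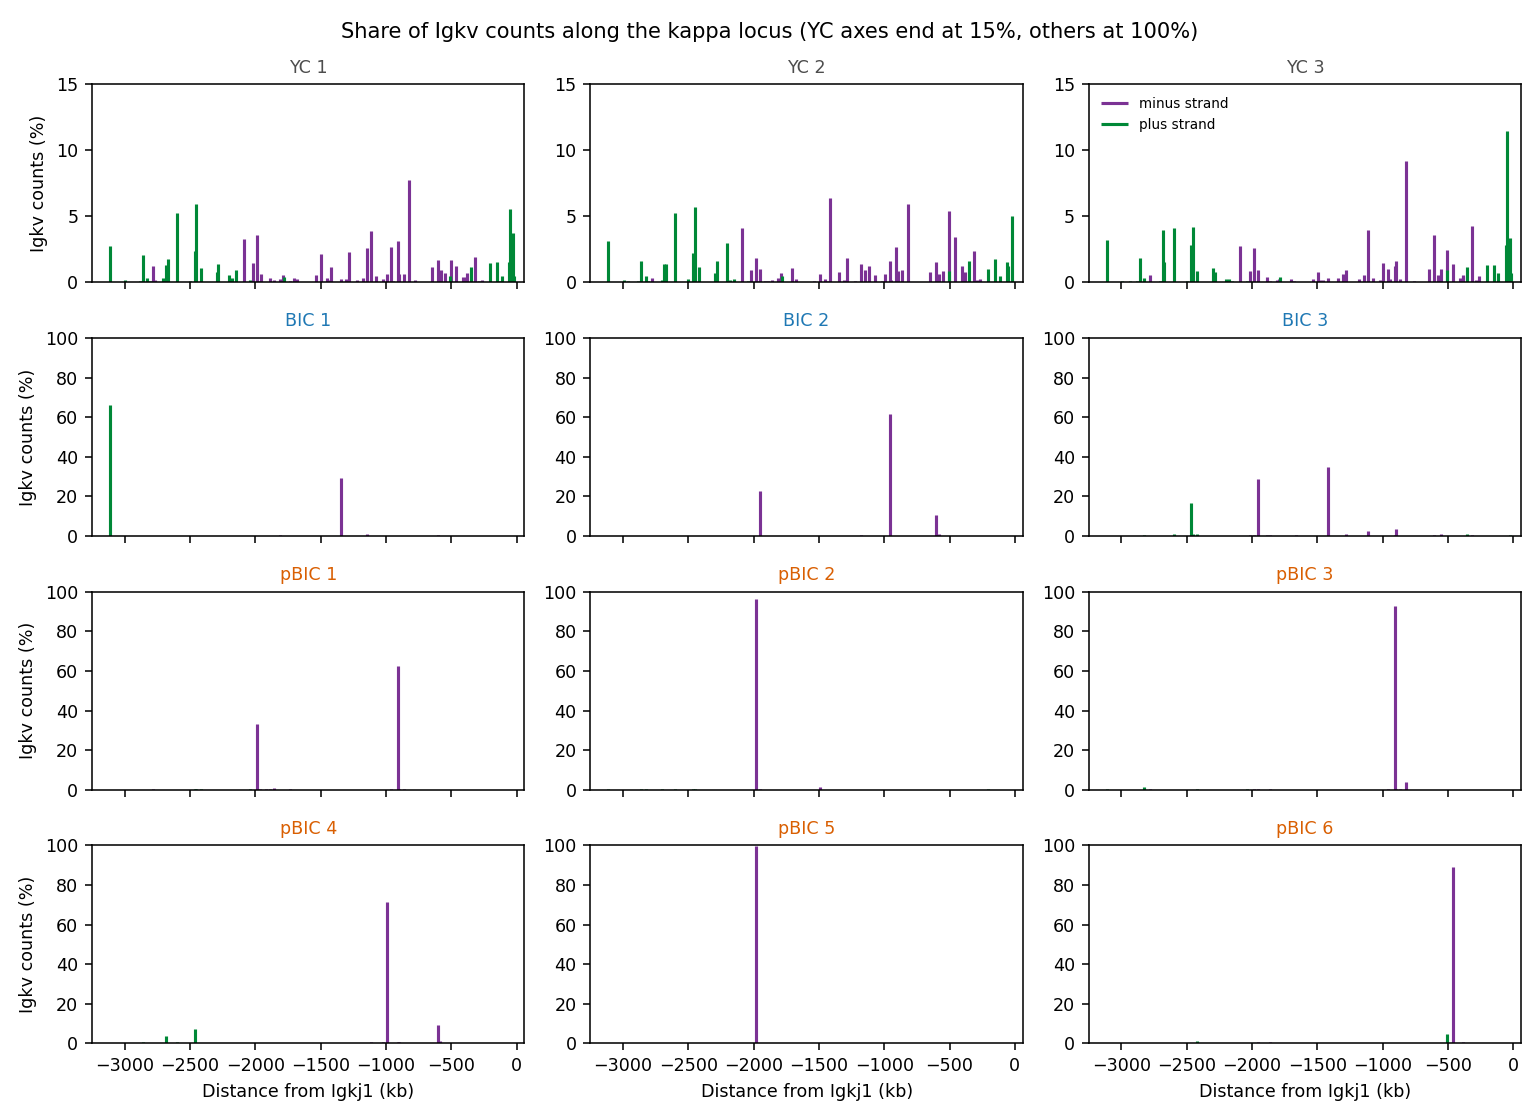
Share of Igkv counts (%) of every kappa V gene against its distance from Igkj1 (kb, negative is upstream), with 1 panel for each library and colour for the strand. The YC axes end at 15% and the others at 100%. Bars stand along the whole locus in YC, while single bars, mostly minus-strand genes, stand in BIC and pBIC.

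By place along the locus the groups overlapped. The 50 members farthest from the J genes held 45.6%, 49.0% and 37.6% of Igkv counts in YC, 97.6%, 24.4% and 87.6% in BIC, and 36.9%, 99.0%, 2.82%, 14.3%, 99.8% and 4.52% in pBIC 1 to 6. The means were 44.1% ± 5.85 in YC, 69.9% ± 39.7 in BIC and 42.9% ± 45.4 in pBIC (exact permutation p of 0.40 for BIC and 0.976 for pBIC against YC, n = 3, 3 and 6). The difference of pBIC from YC was -1.17 points, and -12.5 with pBIC 2 and pBIC 5 as 1 sample (exact permutation p = 0.679). Leading genes came from each of the 4 sets of 25 members along the locus. Igkv1-135, 3112 kb from Igkj1, is the second member from the far end, Igkv19-93 and Igkv4-68 lie among the next 25 members at 1986 and 1417 kb, Igkv5-48, Igkv12-46 and Igkv12-44 lie close together at 995, 958 and 907 kb, and Igkv6-23 lies at 462 kb.

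The amount of kappa V RNA was lower in pBIC. Summed Igkv counts were 3012, 2864 and 3093 CPM in YC, 3728, 2673 and 1139 CPM in BIC, and 1905, 1417, 1222, 957, 1806 and 640 CPM in pBIC 1 to 6. All 6 pBIC libraries lay below all 3 YC libraries, and the difference of the means was -1.27 on the log2 CPM scale (exact permutation p = 0.0238, adjusted p = 0.0286, n = 6 and 3) and -1.34 with pBIC 2 and pBIC 5 as 1 sample (exact permutation p = 0.0357, adjusted p = 0.0429). BIC differed from YC by -0.41 (exact permutation p = 0.70), a value that rests on BIC 3: without it the difference was 0.0792. In such bulk samples fewer cells of a type and less RNA per cell cannot be told apart.

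Igkc, the kappa constant gene, was lower in pBIC by a log2 fold change of -1.13 ± 0.31 (edgeR adjusted p = 0.0226), and its call was lost in 4 of 19 alternatives, among them without YC 1, YC 2 or YC 3 (adjusted p of up to 0.0798). The ratio of Igkv to Igkc counts was 0.813, 0.809 and 0.813 in YC and 0.920, 0.736 and 0.809 in BIC. In pBIC it ranged from 0.532 to 0.966 with a median of 0.789, and the lowest was pBIC 6. Igkc made up 89.0% to 89.3% of light chain constant counts in YC, 76.7% to 82.2% in BIC and 78.5% to 87.4% in pBIC, the rest being lambda (Iglc1, Iglc2 and Iglc3).

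Lambda V genes are few. Iglv1 had 163, 101 and 83.1 CPM in YC, at most 20.1 in BIC and at most 34.8 in pBIC, with a log2 fold change of -4.001 in pBIC against YC (edgeR adjusted p = 0.0177, lost without YC 1 and with no filter, up to 0.07). Iglv2 was lower in pBIC by -3.74 (edgeR adjusted p = 0.016), a call that was lost without YC 1 or YC 2 (adjusted p of up to 0.053).

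**Figure D5:**
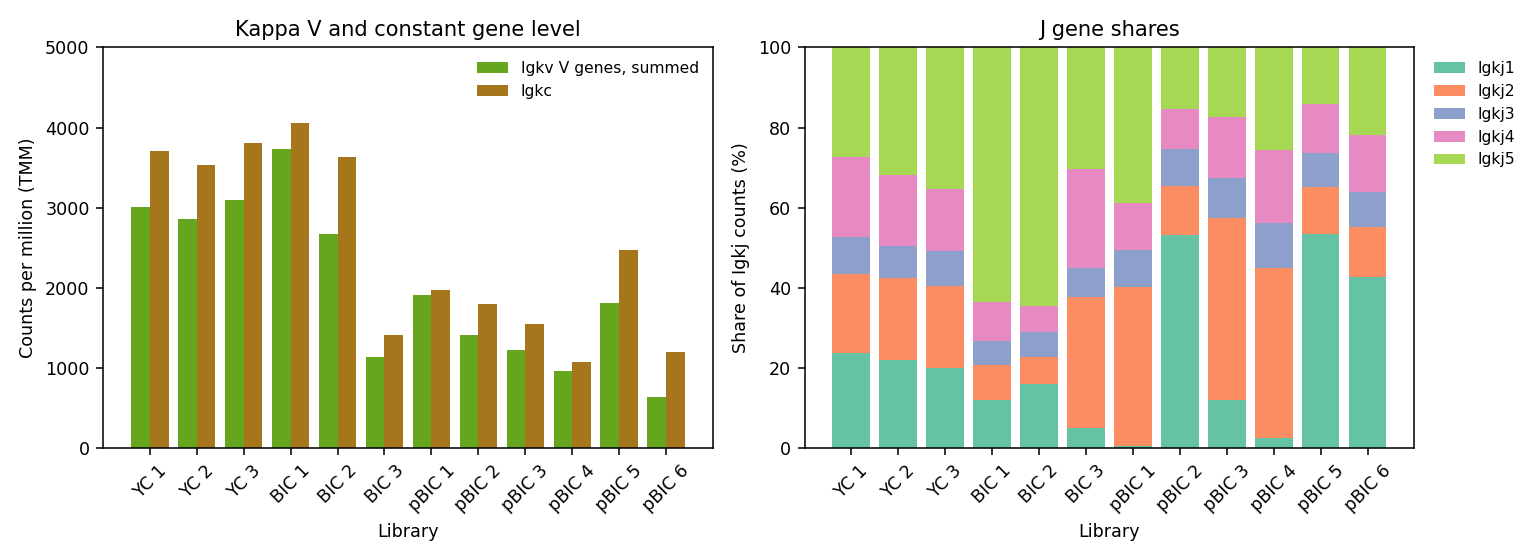
Left, TMM-scaled CPM of the summed kappa V genes and of Igkc in each library. Right, the share of Igkj counts (%) of each J gene. The V genes and Igkc are both lower in every pBIC library than in any YC library, but their ratio varies within pBIC. The leading J gene differs between tumour libraries.

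The J gene shares differed between tumours too. Igkj5 led in all 3 YC libraries at 27.3% to 35.3% of Igkj counts, and held at most 38.9% in pBIC. It held 63.5% and 64.5% in BIC 1 and BIC 2. Igkj2 led in BIC 3 (32.8%), pBIC 1 (39.7%), pBIC 3 (45.2%) and pBIC 4 (42.6%), and Igkj1 led in pBIC 2 (53.3%), pBIC 5 (53.4%) and pBIC 6 (42.7%). Igkj1 was nearly absent in pBIC 1, with 0.487% or 13 counts, and held 2.43% in pBIC 4, against 20.02% to 23.6% in YC. J exons are short and those downstream of the chosen J stay in the unspliced RNA, and J counts were 1749 to 6686 per library. Over groups, Igkj5 was lower in pBIC than in BIC by a log2 fold change of -1.89 (edgeR adjusted p = 0.0114), which was lost in 3 of 19 alternatives, among them without BIC 1 or BIC 2 (adjusted p of up to 0.12), and Igkj4 was lower in pBIC than in YC by -0.85 (edgeR adjusted p = 0.0305, and up to 0.154 without any YC library or without pBIC 2, among the 6 of 19 alternatives that lost it).

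The genes that act on the kappa locus were taken from a list of 22, which holds the recombinase, enzymes that act on V gene DNA, the surrogate light chain of pre-B cells, the insulator factor Ctcf and B cell transcription factors; 18 were tested. In BIC against YC 1 was lower and 0 higher, in pBIC against YC 8 were lower and 0 higher, and in pBIC against BIC 4 were lower and 0 higher, where 4.97%, 10.2% and 8.78% of all genes were lower. The median log2 fold change of the list was -0.55, -0.66 and -0.54.

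Among transcription factors, Irf8, which acts on the kappa enhancers together with PU.1, had 676 to 704 CPM in YC, 127 to 393 in BIC and 165 to 226 in pBIC. Against YC the log2 fold change was -1.31 in BIC (edgeR adjusted p = 0.0265, up to 0.0802 without BIC 3 or any YC library) and -1.83 in pBIC (edgeR adjusted p = 0.000873). Spi1, which encodes PU.1, was lower in pBIC than in YC (-0.81, edgeR adjusted p = 0.00166) and than in BIC (-0.66, edgeR adjusted p = 0.00621). Pou2f2, the octamer factor Oct-2, was lower in pBIC than in BIC (-1.07, edgeR adjusted p = 0.00518). These calls of Irf8 in pBIC, Spi1 and Pou2f2 held in all 19 alternatives. Ebf1 (-1.72), Ikzf3 (-1.22), Pou2af1 (-1.09), Pax5 (-0.999) and Ctcf (-0.53) were lower in pBIC than in YC with edgeR adjusted p of 0.0259, 0.0111, 0.0279, 0.0293 and 0.0322. Leaving out YC 2 ended each of these 5 calls, leaving out YC 3 all but that of Ikzf3, leaving out YC 1 those of Ebf1 and Pax5, leaving out pBIC 5 that of Ctcf, and using no filter those of Ebf1 and Ctcf, with an adjusted p of up to 0.131 over the alternatives. Against BIC, Spib (-1.09) and Xrcc4 (-0.69) were lower in pBIC with edgeR adjusted p of 0.0185 and 0.0494, the first lost without BIC 1 (0.0963) and the second in 12 of 19 alternatives, among them without any YC or BIC library (up to 0.188).

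The recombinase genes were near 0 except in pBIC 4. That library had 364 CPM of Rag1 and 10.9 CPM of Rag2, where no other library had more than 1.27 CPM of Rag1 or 0.0545 CPM of Rag2. The pair was named after its values were seen. Dntt, which adds bases at joints in early lymphocytes, had at most 0.463 CPM and Vpreb1 and Igll1, the surrogate light chain of pre-B cells, at most 0.381 and 0.11 CPM in any library. The library with Rag1 was also the one with the most genes in use among pBIC, an effective number of 3.48. BIC 3 had a higher effective number, 7.31, with 0.335 CPM of Rag1 and 0 of Rag2. No test can be made of 1 library.

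Markers of other cells moved with some of these differences. The 8 plasma cell markers, which mark antibody-secreting cells and include Prdm1, the floxed Blimp1 gene, summed to 1883 to 2190 CPM in YC, 555 to 1477 in BIC and 504 to 1405 in pBIC. Jchain, the joining chain of secreted antibody, had 590 to 666 CPM in YC and at most 64.4 in the other libraries, and Irf4 had 513 to 980 CPM in YC, 182 to 340 in BIC and 122 to 806 in pBIC. The list did not move as one. Mzb1, a chaperone of antibody assembly, had 241, 314 and 366 CPM in YC, 885, 739 and 290 in BIC and 264 to 741 in pBIC, and Prdm1 had 18.1 to 19.97 CPM in YC, 41.1, 31.6 and 5.32 in BIC and 0.717 to 21.3 in pBIC. Tnfrsf17 was near 0 in all, at most 2.59 CPM. The 7 B cell markers, Cd79a among them, were present in all libraries and summed to 8660 to 10260 CPM in YC, 9031 to 9538 in BIC and 2523 to 7405 in pBIC. T cell markers summed to at most 117 CPM, in BIC 1. There Cd3g alone had 86.9 CPM and each other marker of that list at most 8.87. Neutrophil markers summed to at most 1381 CPM, in BIC. Macrophage markers summed to at most 348 CPM, in pBIC 6, where Lyz2 had 233. Adgre1 of that list instead had 25.2 to 28.4 CPM in YC and at most 4.09 in BIC and pBIC. Erythroid markers summed to 19.3 to 454 CPM in YC, 91.1 to 300 in BIC and 21.2 to 396 in pBIC. The part of these cells in the kappa V results was not tested.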

How the data were processed

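The data are the raw counts of reads per gene that the authors deposited, 1 table for each of the 12 libraries. Per the file headers, the counts were made with featureCounts 1.5.0 over GENCODE M13 exons grouped by gene, without the paired-end and strand options and without multi-mapping reads, so near-identical V genes lose reads. Per the submitters' processing notes, STAR and featureCounts were used, with FastQC, edgeR and limma, and the builds were mm10 and GRCm38. The aligner's version is not given in the sources used here. Names, types and sequences came from GENCODE M21 (GRCm38), which named 50376 of the 50686 genes.

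The main test was that of edgeR 4.0.16 under R 4.3.3 (TMM factors, the default filter with a minimum count of 10, robust quasi-likelihood fit over all 12 libraries, Benjamini-Hochberg over 17754 genes); fold changes are log2 with their SE. CPM are scaled by TMM factors. On simulated counts with 200 genes changed 8-fold, modelled on BIC against YC, 55.5% were recovered with 4 false calls. Shares, entropy and distances were computed per library, and groups compared by exact two-sided permutation tests over libraries (scipy 1.17.1), adjusted over 6 measures or 7 subgroups. The text names the 6 members most used in YC, the leading member of each library, the next members with at least 10%, the constant, J and lambda genes, and called members of the regulator list. Groups came from the titles. The header of the YC 1 table names an input path of another pattern than those of the other 11. Members, lists and tests were chosen with earlier results of these data known.

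Alternatives were other scalings, no filter, DESeq2 1.42.0, the 2 groups alone, the replicate number as a block, each library left out, pseudogenes included, counts per length, other thresholds and indices, and the leading gene removed. Entering pBIC 2 and pBIC 5 as 1 sample was added after the data were seen. Some genes of the lists are counted but not reported by name here.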

Additional observations from a re-analysis of the deposited data

Results flagged for a closer look

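In single pBIC libraries a few shares stood far from the other 5, by the gap to the nearest value over the range. Of 31 sets of pBIC values examined, 11 were marked. Chance flags about 1 set in 20, but several sets are genes that were named because they led a single pBIC library, or the subgroups of such genes, so that the number marked cannot be read against chance. In pBIC 4 these were Igkv5-48 (71.6% of Igkv counts), Igkv8-30 (9.12%), Igkv14-111 (7.26%), Igkv1-117 (0.742%) and Igkv12-46 (0.298%), and with them subgroup 5 (72.3%) and subgroup 8 (9.45%). In pBIC 6 they were Igkv6-23 (88.9%) and subgroup 6 (94.6%), in pBIC 3 Igkv5-39 (3.63%), and in pBIC 2 subgroup 3 (0.419%).

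Igkv pseudogenes, which are no members and entered the group differences as an alternative alone, held more of the Igkv and pseudogene counts than in any YC library (at most 0.486%) in 5 of the 9 tumour libraries. Their share was 0.62% in BIC 2, 2.73% in BIC 3, 0.80% in pBIC 1, 0.718% in pBIC 4 and 2.96% in pBIC 6. The most counted pseudogene was Igkv2-107 in BIC 3, with 657 of 1145 counts, and Igkv4-77 in pBIC 6, with 505 of 827.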

How the results depend on the processing

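Of 243 recomputed values of the 18 group differences in the 6 measures, 218 kept their direction and their side of 0.05, 16 lost their call and 9 changed sign. The differences of BIC from YC cannot go below an exact permutation p of 0.10, so their side of 0.05 was fixed by the design. Without the leading gene of each library, the minus-strand difference of pBIC from YC fell to 7.75 points and lost its call, that from BIC turned to -24.6, and the share of the distal 50 members in pBIC against YC turned to 15.6; this setting removes what the measure rests on.

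The number of Igkv genes called in BIC against YC was 64 with the 2 groups alone and 54 by DESeq2, and in pBIC against BIC 15 with no filter, 11 with the 2 groups alone and 14 with the replicate number as a block. Over all genes these fits called, in the same order, 4602 of 15923, 3032 of 17561, 2484 of 33434, 2377 of 16853 and 2424 of 17754. The replicate numbers did not pair the libraries (correlations of -0.095 to 0.155). With the block 43 members were called in BIC against YC and 67 in pBIC against YC, where 1725 and 3144 of all 17754 genes were called. The block ended the calls of Igkc, Igkj4 and Pou2af1 in pBIC against YC and of Igkj5 and Xrcc4 in pBIC against BIC.

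With 1 library left out, the counts of called Igkv genes ran from 19 to 41 (BIC against YC), 59 to 74 (pBIC against YC) and 13 to 34 (pBIC against BIC). Those over all genes ran from 563 to 1867, 1904 to 4376 and 1422 to 4134. Leaving out any YC library ended all 5 calls of pBIC against YC, since 6 against 2 libraries cannot go below an exact permutation p of 0.0714. The differences, in the same order of comparisons, ran from -0.78 to 0.0792, -1.39 to -1.08 and -1.35 to -0.49 for the Igkv level (log2), 39.8 to 55.5, 73.9 to 81.3 and 21.2 to 36.97 points for the top gene share, -0.596 to -0.481, -0.723 to -0.671 and -0.214 to -0.0986 for evenness, -27.5 to -24.5, -28.7 to -26.2 and -2.67 to 0.333 for genes with at least 1%, 0.932 to 34.3, 39.9 to 43.8 and 7.66 to 41.0 points for the minus strand, and 11.9 to 48.5, -12.6 to 6.85 and -49.7 to -13.1 points for the distal members. The subgroups called in pBIC against YC ran from 0 to 5, the latter without pBIC 4, at an adjusted p equal to the threshold. Why these values moved was not tested. The exact tests are limited by the number of libraries, and single members by their counts: 14 to 45 of the 100 members had at least 10 counts in a pBIC library.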
